A study of Mus musculus with 11 samples.

Results

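RFX1 binding sites were taken as all 7440 peaks of the reproducible-peak list for RFX1, out of 18008 peaks in the 3 lists of the series. They come from chromatin immunoprecipitation followed by sequencing (ChIP-seq), in which DNA fragments held by a protein are pulled down with an antibody and sequenced. The cells were ependymal cells obtained ex vivo by differentiation from lateral brain walls of wild type OF1 mice; the labels call the tissue embryonic and give the age as P0. Of 11 samples, 2 were RFX1 ChIP samples and 2 were the matching input chromatin, to which no antibody was added. All carried the same genotype and no treatment is named. The cultures were bulk preparations, so a site may belong to ependymal cells or to any other cell in the dish, and no RNA was measured here that could check the cell type. The RFX1 replicates had been merged into 1 list before deposition, so the values below carry no replicate error, and their read depth is unknown.

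RFX1 is a member of the RFX family of winged-helix transcription factors. The family binds the X-box, an imperfect inverted repeat whose arms are separated by a short spacer, and each arm can be read by a single RFX domain. RFX factors are known as regulators of genes that build and move cilia, from nematode sensory neurons to vertebrate multiciliated cells. RFX1 is broadly expressed, was first described through viral enhancers and class II major histocompatibility promoters, and can activate or repress. Ependymal cells line the brain ventricles and carry tufts of motile cilia.

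The position used for each site is the summit, the base where the peak caller placed the strongest signal. A summit lay at a median of 49.5% of the peak width, and 13 bp from the midpoint at the median. Strength is given as the peak's −log10 q, the peak caller's error rate on a log scale, and as fold enrichment over background, both the authors' values. Fold ran from 3.06 to 46.5. Across the 7440 peaks the ranks of fold and −log10 q moved together (Spearman's rank correlation 0.849), as did those of width and −log10 q (0.775); peaks of a single list share libraries and depth.

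Sequences at the promoter summits are shown first, as examples. RefSeq promoter sequences of GRCm38.p6 cover 250 bases before to 50 after a transcription start, and 17492 of 21887 protein-coding genes had at least 1 such window. An arm of the X-box was searched as GTTGCC on both strands. The full X-box was searched as that arm, 0 to 3 spacer bases and its reverse complement, with the 4th base of each arm left free (GTTNCC). Capitals mark the match, each run reads 5′ to 3′ on the strand given, and the name is that of the gene whose start lies nearest. Of 926 summits with at least 35 bases of window on each side, 77 had a full X-box within 25 bp. Another 401 had no arm there, even with its 4th base free. The summits below were chosen for having a full X-box within 25 bp:
Tmx4, chr2:134644242-134644271, minus strand: gcaggccGTTGCCTTGGGAAACtgcagacg
3110082I17Rik, chr5:139460666-139460695, minus strand: caccaggtGTTGCCCTGGCAACtgactgcg
Mks1, chr11:87853183-87853212, plus strand: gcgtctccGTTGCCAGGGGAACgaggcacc
Agbl3, chr6:34780403-34780432, plus strand: gtacagccGTTGCCCTGGCAACaagcggcc
Tecpr2, chr12:110889217-110889246, plus strand: cctaacccGTTGCCTAGGCAACaggctccc
Lztfl1, chr9:123717597-123717626, minus strand: tgtctccGTTCCCATTGGCAACgcgcggct
Cep41, chr6:30693858-30693887, minus strand: gtcccgcGTTGCCCTTGGCAACcattgagc

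The first 5 were among the strongest summits with such a match, and Mks1, Lztfl1 and Cep41 are ciliary genes. Tmx4 encodes a thioredoxin-related membrane protein. Its summit had the second highest −log10 q of the whole list (251) and lay 24 bp from the centre of the match. Mks1 encodes a protein of the transition zone, the gate at the base of the cilium. Its summit lay 0.5 bp from the centre of the match and 18 bp upstream of the start, with a −log10 q of 166. Agbl3, for a carboxypeptidase that trims glutamates from tubulin, also had its summit 0.5 bp from the centre, 15 bp upstream of the start (163). For Tecpr2, a gene tied to autophagy, the summit lay 2.5 bp from the centre (163), and for 3110082I17Rik 1.5 bp (172). Lztfl1 encodes a regulator of BBSome traffic and Cep41 a centrosomal protein tied to tubulin glutamylation in cilia. In both, as in Tmx4, the spacer was 3 bases long, where the other sequences shown have 2. Their summits lay 15 and 25 bp from the centre, with −log10 q of 146 and 95.3.

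Other strong summits at ciliary genes held GTTGCC but no full X-box as searched. That search does not find a second arm with other mismatches. These 4 had the highest −log10 q of that kind:
Ttll10, chr4:156050813-156050842, minus strand: tccctagtaacaGTTGCCtggagacagttg
Ttll3, chr6:113392386-113392415, minus strand: tcctaggagactGTTGCCcaggcacaatca
Bbs1, chr19:4906609-4906638, minus strand: atggctgagctgGTTGCCaaggcgacgcct
Tekt4, chr17:25471586-25471615, minus strand: gcaaggttcctgGTTGCCtaaggaacattg

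Ttll10 and Ttll3 encode enzymes that add glycines to tubulin. The −log10 q was 197 at Ttll10, with the summit 5 bp upstream of the start, and 175 at Ttll3, 58 bp upstream. Bbs1, a subunit of the BBSome coat, had 163 with the summit 8 bp past the start. Tekt4, for a tektin of the ciliary doublet microtubules, had 150 with the summit 5 bp past the start. In all 4 the summit lay between 4.5 and 5.5 bp from the centre of the match.

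A match was not a requirement for a strong peak. The summits below had neither GTTGCC nor GTTNCC within 25 bp; that says only that these letters are not in the stretch searched:
1700094D03Rik, chr3:90062742-90062771, plus strand: gttggacgcctaaatgttgctatgactact
Rfx1, chr8:84066798-84066827, plus strand: tccgccctggcgtgtgacgtagtagggtgg

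The first ranked 4 of 7440 (−log10 q of 234) and lay 51 bp upstream of the start. The second was at an inner start of the gene for RFX1 itself, 23 bp upstream, and ranked 35, at a −log10 q of 187 with 22.3-fold enrichment.

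Across promoters, X-box letters were more common where RFX1 had a summit. Of 1101 promoter windows that held a summit, 504 (45.8%, 95% exact Clopper-Pearson interval 42.8 to 48.8) held GTTGCC, against 12.6% of all 21263 windows of the same length. With the 4th base free the shares were 76.5% and 45.3%. The full X-box with free 4th bases stood in 94 of the 1101 windows (8.54%, 6.95 to 10.3) and in 0.762% of all windows. Windows with a summit were also richer in G and C, with a median of 59.7% against 56.3%, and in CpG, with a median of 20 against 13 per window. The GC box GGGCGG stood in 60.3% of them against 46.2% of all, and CCAAT in 47.9% against 38.2%, both searched on both strands; the part of base composition in the X-box shares was not tested. The 1101 windows came from 1034 genes. Windows can share a summit and a match, so the intervals on windows are too narrow. Intervals here and below cover the counting of peaks, windows or genes only.

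Within the windows the X-box letters sat at the summit itself, and the other 2 motifs did not. Of 926 summits with at least 35 bases of window on each side, 340 (36.7%, 33.6 to 39.9) had GTTGCC within 25 bp, where 2.32% of all positions in all windows did. The full X-box with free 4th bases lay within 25 bp of 77 summits (8.32%, 6.62 to 10.3) against 0.151% of positions. For CCAAT the shares were 11.8% and 9.88%, and for the GC box 14.4% and 15.05%. In the 499 windows with both a summit and GTTGCC, the nearest match lay at a median of 8.5 bp from the summit (quartiles 3.5 and 22.5).

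**Figure D1:**
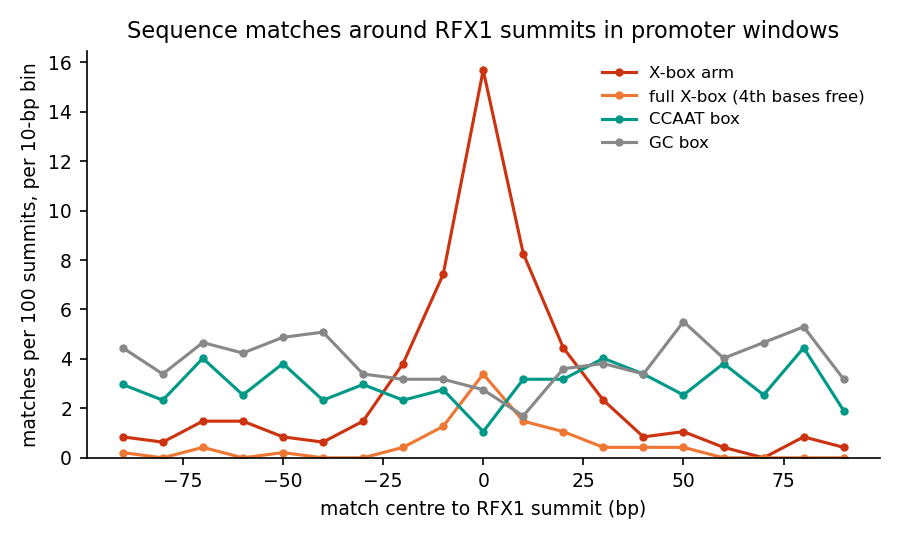
Matches to 4 motifs per 100 summits, in bins of 10 bp by distance of the match centre from the RFX1 summit, over 472 summits whose window reaches far enough on both sides. The X-box arm peaked at the summit with 15.7 matches per 100 summits and the full X-box with 3.39, while the GC box and CCAAT box had no peak there.

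Beyond the 6 searched letters, the next bases read as the second arm of the inverted repeat. Taking the 340 summits with GTTGCC within 25 bp and reading on from the match, the commonest letters of positions 1 to 14, counted from the first base of the match, were GTTGCCATGGCAAC. The letter G stood at position 9 in 80.6% and at position 10 in 71.8% of them, where 30.9% and 34.7% of 2150 matches in windows without a summit had it. The letter A at position 13 (61.8% against 26.1%) and C at position 14 (66.2% against 29.3%) were also more common, and the spacer letters A at 7 and T at 8 were less fixed (55.3% and 43.5%, against 27.5% and 22.4%). So were 2 letters of the second arm, A at 12 (47.6% against 22.8%) and C at 11 (35.3% against 26.5%). The full X-box without free bases lay within 25 bp of 24 of the 926 summits. Among 672 matches to GTTNCC within 25 bp of a summit, the free base was G in 56.7%, T in 19.0%, A in 13.1% and C in 11.2%. Over all windows G made up 22.3% of such matches and T 34.6%. The 77 full X-boxes near summits had a spacer of 2 bases in 57 cases, 1 base in 13, 3 bases in 7 and 0 bases in none.

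The share of summits with X-box letters was lower among weaker peaks. With the 926 summits in 4 groups of like size by −log10 q, GTTGCC within 25 bp was found in 55.2% (48.5 to 61.7), 35.5%, 32.5% and 23.7% (18.4 to 29.7), from the strongest to the weakest. The full X-box went from 13.8% (9.63 to 18.9) in the strongest group to 5.17% (2.70 to 8.86) in the weakest. Read the other way, summits with GTTGCC but no full X-box had a median −log10 q of 72.7, those with a full X-box 66.5, those with another 4th base alone 45.2, and the 401 with none of these 47.7. Ciliary and other genes gave these shares, which were not tested against each other: 32 of 88 summits at starts of the listed ciliary genes (36.4%, 26.4 to 47.3) had GTTGCC within 25 bp, and 272 of 747 at other genes (36.4%, 32.95 to 39.98). The ciliary summits had a median −log10 q of 74.9 against 56.8.

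RFX1 summits gathered on and just upstream of transcription starts. Of all summits, 1508 (20.3%) lay within 1 kb of a start in the promoter table, at a median of 38 bp upstream (signed distance -38, quartiles -145 and 35). Of these, 972 (64.5%) were upstream, 740 (49.1%) lay within 100 bp of the start and 1091 (72.3%) within 250 bp. By genes, 1655 of 17492 (9.46%) had a summit within 1 kb of a start. Of the gene-end summits, those within 1 kb of either outer end of a protein-coding gene, 1360 could be placed by strand, and 1279 (94.0%) of these were at a 5′ end or a start. The other 81 lay at a 3′ end alone and were weaker, with a median −log10 q of 33.1 against 48.1 at starts.

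**Figure D2:**
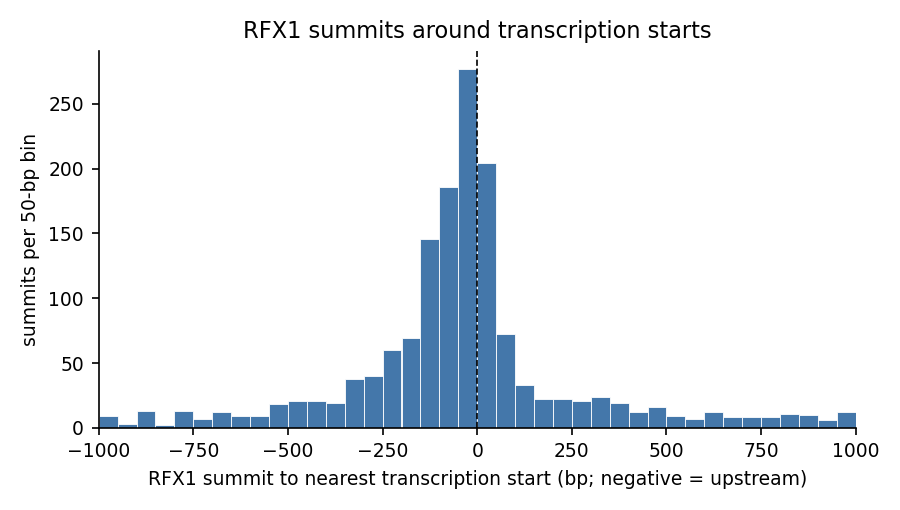
RFX1 summits by signed distance to the nearest transcription start in bins of 50 bp, negative values upstream. The tallest bins are the 50 bp before the start with 277 summits and the 50 bp after it with 204.

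Some 239 of the start summits were at no outer gene end, because they lay at starts inside a gene. Counting such inner starts added 237 genes to the 1980 (9.05% of protein-coding genes) with a summit at an outer end, giving 2217 (10.1%). The 5 strongest of the added genes were Rfx1, Ttll3, Ak1, an adenylate kinase gene (169, 41 bp upstream), Myo10, for an unconventional myosin of filopodia (158, 398 bp upstream), and Tmem9 (157, 37 bp upstream). Ciliary genes among them included Dync2h1, the heavy chain of the retrograde transport motor (−log10 q of 157, summit 24 bp past the start), Cfap74 (129, 84 bp upstream), Cluap1 (103, 384 bp upstream), Ttll9 (93.6, 3 bp upstream), Dnaaf2, a dynein assembly factor (62.3, 4 bp upstream), Ift74 (42.0, 8 bp upstream), Nphp4 of the transition zone (37.3, 178 bp past the start), Dnah1, an inner arm dynein (28.3, 41 bp upstream), and Kif3a, the anterograde motor (26.3, 65 bp upstream).

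The strongest summits at gene ends mixed ciliary genes with genes of other known roles. After Tmx4, the pair 1700094D03Rik and 4933434E20Rik and the coiled-coil gene Ccdc30 (210, 72 bp upstream of the start) came Cfap65, needed for sperm flagella (208, 7 bp from the gene end), and Efcab1, tied to outer dynein arms (207, 361 bp from the end). They were followed by the kinase gene Mink1 (203), Enkur, for a protein inside ciliary microtubules (201), the semaphorin gene Sema4b (199) and Mapre3, for a protein of growing microtubule ends (198). The 9 summits named here had folds between 17.9 and 30.9.

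RFX1 summits also lay at shared promoters. Of the 1508 start summits, 195 (12.9%) had starts on both strands within 1 kb, of divergent or overlapping genes. Their median −log10 q was 56.2 against 46.5 for the rest. Among 1483 genes with a start of the opposite strand within 1 kb upstream, 353 (23.8%, 21.7 to 26.1) had a summit at a start, against 1302 of 16009 other genes (8.13%, 7.71 to 8.57). The same summit can count for both genes of a pair, so the first interval is too narrow. Such genes also have a second start nearby, and the part of either in the higher share was not tested. Where a divergent pair shares a summit, the gene that RFX1 may act on cannot be read from the position. At the strongest pair, Enkur and Thnsl1, a threonine synthase-like gene, the summit lay 3 bp upstream of the first and 356 bp upstream of the second. At Lrrc56 and the GTPase gene Hras the distances were 145 and 994 bp upstream (−log10 q of 194). At Cfap57, a ciliary gene, and Ebna1bp2, a ribosome biogenesis gene, the summit lay 2 bp past the first start and 16 bp upstream of the second (183). Tmem138, a ciliopathy gene, and Cyb561a3 had it 24 and 47 bp upstream (173). At Dync2h1 and Dcun1d5, which overlap at their starts rather than diverge, the summit lay 24 and 444 bp past the starts.

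Peak strength by −log10 q was higher at gene ends than in the other places at the median. Summits at gene ends had a median −log10 q of 48.0, those inside genes 27.1 and those between genes 25.5. The median folds lay closer together, at 8.21, 7.39 and 7.35 in the same order. In the strongest decile of the list 51.1% (47.4 to 54.7) of summits were at a gene end and 18.5% (15.8 to 21.5) between genes. In the weakest decile the shares were 12.6% (10.3 to 15.2) and 42.5%. The bases themselves divide differently: gene ends with their 1 kb windows make up 2.94% of the bases between the outermost genes of the chromosomes, the insides of genes 36.7% and the space between genes 60.3%.

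**Figure D3:**
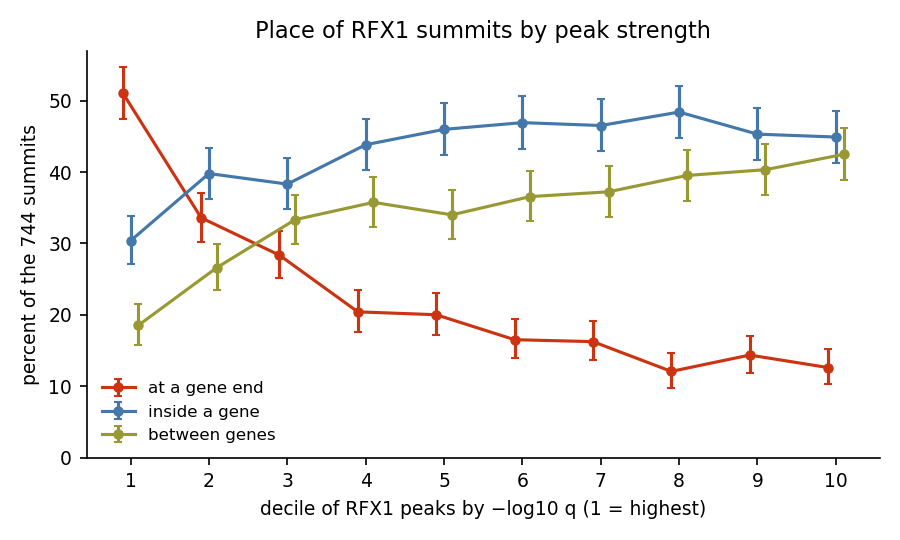
Percent of summits at a gene end, inside a gene and between genes in deciles of the RFX1 peaks by −log10 q, 744 peaks each, with 95% exact intervals as bars. The gene-end share goes from 51.1% in the strongest decile to 12.6% in the weakest, and the share between genes from 18.5% to 42.5%.

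Distal summits were numerous and some were among the strongest of all. Summits inside genes lay at a median of 22.8 kb from the nearest gene end, and 455 of the 3201 (14.2%) were more than 100 kb away. Those between genes lay at a median of 34.7 kb, and 667 of the 2562 (26.03%) were beyond 100 kb. The strongest summits inside genes were in Rtn1, a reticulon gene of the endoplasmic reticulum (224), the GTPase-activating protein gene Arhgap12 (222), the kinase gene Cdkl3 (214), Tppp3, for a microtubule-bundling protein (199), and Por, for the electron donor of cytochrome P450 enzymes (197). They lay 53.7, 31.3, 9.60, 1.95 and 5.05 kb from a gene end. Between genes, the 5 strongest were nearest to the channel-like gene Tmc3 (278), the glutamate receptor gene Grin2a (237), Fra10ac1 (220), Dhrs2, a dehydrogenase gene (218), and Matn1, a matrilin gene (218), at 3.82, 287, 10.8, 16.8 and 216 kb. The most remote summit lay 2117 kb from Pcdh20, a protocadherin gene, with a −log10 q of 17.99.

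Most RFX1 sites stood alone. Neighbouring summits on a chromosome were a median of 138 kb apart (quartiles 47.0 and 357 kb). Another summit lay within 10 kb of 1104 summits (14.8%, 14.04 to 15.7). Joining summits at that distance left 6336 single sites, 468 pairs, 45 groups of 3, 7 of 4 and 1 of 5. The share at a gene end was alike in single and grouped sites: 22.6% of single summits, 22.8% of those in pairs and 19.6% (13.9 to 26.5) of the 168 in groups of 3 or more were at a gene end. Their median −log10 q was 28.9, 30.4 and 30.8. In 215 of the 468 pairs both summits were inside the same gene, and in 53 both were at gene ends. The closest summits, 336 bp apart near Ndufb5, were separate peaks with −log10 q of 13.3 and 15.01.

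The 53 groups of 3 or more spanned a median of 10.23 kb, 45 of them touched a gene, and 32 had no summit at a gene end. The group of 5 ran over 19.1 kb through Prr7, for a postsynaptic membrane protein, and Dbn1, for the actin-binding protein drebrin. Its −log10 q values were 96.7 at 378 bp past the Prr7 start, 17.7 and 72.9 further inside Prr7, and 75.5 and 83.3 inside Dbn1. The first of the groups of 4, by summed −log10 q, followed the LIM-domain genes Crip2 and Crip1 and ended at Tedc1, for a protein of the delta and epsilon tubulin complex. There the summits were of like strength (41.1, 53.7, 47.6 and 61.5), 97 bp upstream of the Crip2 start at one edge and 208 bp upstream of the Tedc1 start at the other. In Arvcf, a catenin gene, 3 weaker summits (15.8, 12.1 and 28.3) preceded a strong one (133). The first and the third of these lay 76 and 122 bp upstream of inner starts of Arvcf. The group at Pnmal2 had −log10 q of 32.1, 15.97, 86.2 and 27.6, the last 96 bp upstream of the Pnmal2 start. The group nearest Tuba1a, an alpha tubulin gene, lay in no gene, at 15.7 to 32.3 kb from its end, with 29.3, 78.4, 17.0 and 29.1; Tuba1a also had a single summit 98 bp upstream of its start (64.7).

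**Figure D4:**
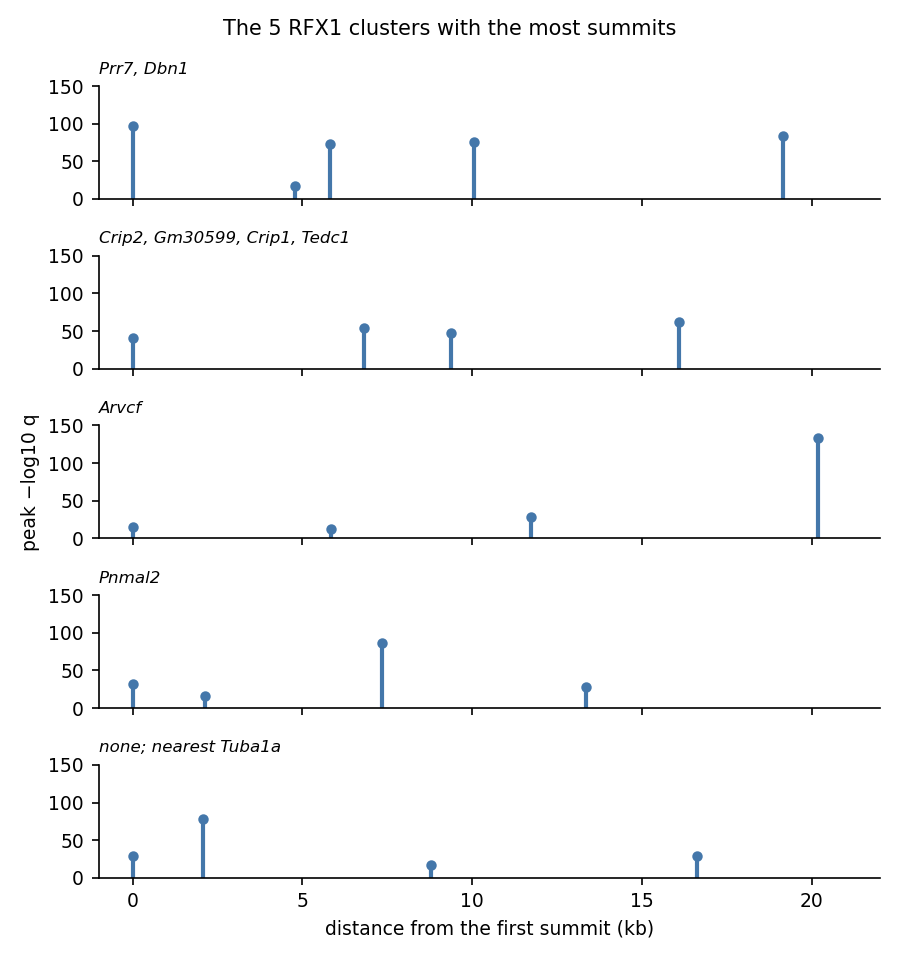
The 5 groups with the most summits, as vertical lines at each summit by distance in kb from the first, with height the peak's −log10 q. Each panel is named for the genes its summits touch or, where there are none, the nearest gene. In the Arvcf panel the last summit, at 133, stands above the other 3.

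Single genes with many summits were mostly long. Within a gene or 10 kb of it, 5447 of 21887 protein-coding genes (24.9%) had at least 1 summit, 987 had 2 and 373 had 3 or more. Ptprn2, for a membrane protein of secretory vesicles, held 9 in 792 kb. Rtn1 held 8 in 197 kb, Foxn3, a forkhead repressor gene, 8 in 374 kb, Msi2, for an RNA-binding protein of neural progenitors, 8 in 379 kb, and Sema6d, a semaphorin gene, 7 in 578 kb. Per 100 kb of gene that was 4.05 summits in Rtn1, between 2.11 and 2.14 in Msi2 and Foxn3, and 1.14 and 1.21 in Ptprn2 and Sema6d. The strongest summit of these genes was that of Rtn1 (224), and the strongest in Ptprn2 had 87.3.

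Both outer ends were bound in 29 genes, in 12 of them by a single summit in a short gene. Of the 17 with separate summits, Thbs3, a thrombospondin gene, had −log10 q of 84.8 and 168 at its ends, Cars, for a tRNA synthetase, 92.4 and 71.6, Tmed10, for a cargo receptor of the secretory pathway, 62.4 and 58.2, Fbl, for the nucleolar methyltransferase fibrillarin, 56.8 and 138, and Brms1 108 and 49.9. In Cars the summits were 187 and 27 bp from the ends.

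Chromosomes differed in how many sites they held for their genes. Chromosome 12 had 57.4 summits per 100 protein-coding genes and chromosome 18 had 47.9. Chromosome X had 16.7 and the median −log10 q of its 161 summits was 22.6, while the autosomes ranged from 25.8 to 33.9. Chromosome Y had 2 summits. The mice's sex is not given in the labels, so copy number of X and Y in the cultures is unknown, and its part was not tested. Among the autosomes the share at gene ends ran from 12.5% on chromosome 14 to 33.0% on chromosome 19. The widest distances between neighbouring summits were both on X, 13.6 Mb with 31 protein-coding genes and 13.3 Mb with 57.

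Genes of the cilium were placed at RFX1 summits in most classes of machinery. Over 12 lists pooled, 150 of 224 genes (67.0%, 60.4 to 73.1) had a summit at an outer end, where 9.05% of all protein-coding genes did, and 184 had one inside or within 10 kb, where 24.9% did. At their starts the summits were tightly placed: of 142 ciliary genes with a bound start, 115 (81.0%) had the summit within 100 bp, at a median of 3 bp upstream (-3). The median of the best −log10 q at an end was 70.8, against 49.1 for all genes with an end summit. The pooled ciliary genes had a median length of 41.0 kb, against 17.2 kb for all protein-coding genes. Gene length was not matched for the count within 10 kb, and its part was not tested. These lists were written with the RFX1 results known, so their counts are descriptions. Names that matched no protein-coding gene are left out of them.

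In the transport machinery most matched genes had a summit once inner starts were counted. Intraflagellar transport (IFT) moves cargo along the axoneme. In complex A, 5 of 6 genes had an end summit, led by Ift122 (117), Ift140 (69.1) and Wdr35 (63.7); the sixth, Ttc21b, had its nearest summit 5.72 kb away. In complex B it was 13 of 18, and 15 with inner starts, led by Ift22 (148, 39 bp upstream), Ift57 (103), Ift81 (100) and Ttc26 (94.96), which had a full X-box. Of 9 motor genes 5 had an end summit and 7 an end or start summit. Dync2li1 (146) and Tctex1d2 (142) of the retrograde motor led, while Kifap3 and Kif17 had none within 100 kb. In the BBSome list, for the coat that sorts ciliary membrane proteins, 11 of 13 had an end summit; Mkks and Bbs10, which encode chaperonin-like assembly factors, had none, at 192 and 171 kb. In the transition zone it was 19 of 24, led by Tctn2 (174, 37 bp upstream), Mks1 and Tctn1 (139).

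Genes of the motile axoneme were bound to a like extent. End summits were found at 19 of 27 genes of dynein arms and docking and at 10 of 15 of dynein arm assembly, or at 22 and 12 with inner starts. Dnaaf3 (168), Cfap298 (159) and Dnaaf5 (140) led the assembly list. Of its other members, Dnaaf4 and Dnaaf2 had summits at inner starts, Spag1 had 1 inside the gene (101.9), Pih1d1 had 1 at 2.16 kb and Dnaaf6 had none within 2366 kb. Radial spoke, nexin-dynein link and central pair genes counted 27 of 36, led by Cfap57 (183), Rsph1 (165) and Rsph4a (145). Tektins and microtubule inner proteins counted 15 of 22, led by Enkur (201), Cfap20 (171) and Nme7 (142).

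Other ciliary classes were bound in part. Tubulin tyrosine ligase-like enzymes, which glutamylate or glycylate tubulin, counted 6 of 13, and 8 with the inner starts of Ttll3 and Ttll9. Ttll1 had a summit inside the gene (73.3), and Ttll11, Ttll7, Ttll12 and Ttll2 had none within 40 kb. Among small GTPases and lipidated cargo it was 8 of 15, led by Ift22, Rab28 (83.4) and Rabl2 (73.9). The general trafficking GTPases Rab8a and Rab11a had their nearest summit at 15.2 and 73.6 kb, and Inpp5e, Pde6d, Unc119, Unc119b and Cys1 at 23.3 kb or more. Basal body and distal appendage genes counted 15 of 29, led by Cep19 (133), Cep162 (120) and Sclt1 (108).

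The programme that sets up multiciliated cells had a lower share of bound ends than the 12 ciliary lists. It counted 7 of 26 genes (26.9%, 11.6 to 47.8), where 9.05% of all protein-coding genes had an end summit, and 9 with inner starts. Inside or within 10 kb it was 15 of 26 (57.7%), where it was 24.9% of all genes. Foxj1, the master gene of motile ciliogenesis, had a summit 77 bp from its end (150), and Ccno, a cyclin gene of centriole amplification, 1 at 212 bp upstream of the start (95.6). The master regulator gene Mcidas, next to Ccno, had its nearest summit 5.99 kb away, which was this summit of Ccno. Gmnc, another such regulator, had a summit only inside the gene (150), as had the p73 gene Trp73 (58.2).

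Several genes of the RFX family had RFX1 sites, mostly inside the gene. Besides the inner start of Rfx1, there was 1 of Rfx3 with a summit 72 bp past the start (147), among 3 summits inside Rfx3. Rfx2 had a summit 60 bp past its start (31.3), and 3 summits with a best −log10 q of 116 formed a group inside the gene. Rfx4 had 3 inside, the best at 47.1. Rfx5, Rfx6, Rfx7, Rfx8, Rfxap and Rfxank had none within 40 kb. The MHC class II list, the pathway of RFX5, had 0 of 11 genes with an end summit (upper limit of the interval 28.5%). H2-DMa and H2-DMb2 had weak summits at 1.39 and 1.57 kb; H2-DMb1, H2-Oa, H2-Ob, H2-Ab1, H2-Aa, H2-Eb1, Cd74, B2m and Ciita had none within 11 kb. Of 10 genes with reported RFX1 binding in other cells, 2 had an end summit, the microtubule-associated protein gene Map1a (160, 53 bp past the start) and the ribosomal protein gene Rpl30 (111). Myc, Pcna, Fgf1, Cd70, Itgal, Il5ra, Tgfb2 and Slc1a1 had none, the nearest being Itgal at 11.1 kb.

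In 3 lists of signalling and glial genes the share with a summit inside or within 10 kb was above that of all genes, while end summits were few. The share was also above that of all genes, though by less, in the Hedgehog, Wnt and BMP, and neuronal lists. A summit at an end also counts as within 10 kb, so the count within 10 kb is never the smaller one. None of 19 planar cell polarity genes, which orient the cilia, had an end summit (interval 0 to 17.6%), but 11 had 1 inside or within 10 kb, among them Prickle2 (84.4), Ankrd6 (77.6) and Vangl1 (70.2). Of 28 Notch pathway and Id genes, Numb alone had an end summit (44.3), and 15 in all had 1 inside or within 10 kb, including 5 summits inside Maml2 (best 157) and 1 inside Lfng (152). Of 24 astroglial and radial glial genes, Atp1b2 alone had an end summit (14.01) and 12 in all had 1 inside or within 10 kb. Among them were Aqp4 (104), which is also in the ependymal list below, and Slc1a2 (90.1), Nfib (88.2) and Nfia (78.2). The last 3 had 3 summits inside each. Against 24.9% of all genes these 3 lists stood at 11 of 19, 15 of 28 and 12 of 24. Their median gene lengths were 35.4, 13.4 and 11.7 kb, against 17.2 kb for all protein-coding genes. Gene length was not matched, and its part was not tested. The end intervals of all 3 lists held the 9.05% of all genes. In the Hedgehog list 2 of 22 had an end summit, Iqce (74.3) and Efcab7 (44.7), and 7 (31.8%) had 1 inside or within 10 kb. In the Wnt and BMP list Axin2 alone (17.0) of 29 had an end summit, Smad5 had 1 at an inner start, and 8 (27.6%) had 1 inside or within 10 kb. The median gene lengths of the Hedgehog list and the Wnt and BMP list were 56.6 and 47.4 kb, and length was not matched there either.

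Among marker genes of the cells that such cultures may hold, the ependymal list stood above the 9.05% of all genes, and the intervals of the other lists held that share. Ependymal markers had 6 of 12 with an end summit (interval 21.1 to 78.9%), namely Foxj1, Pltp (75.7), Dynlrb2 (59.2), Ccdc153 (53.2), Tmem212 (20.8) and Mia (17.0). Cd24a and Aqp4 had summits inside (93.0 and 104), and Vim, Rarres2, S100b and Sox9 had none within 15 kb. Aqp4 is also in the astroglial list, and Foxj1 in that of the multiciliated programme. For the neuronal list it was Slc17a6 alone of 20 (25.8), with an interval of 0.127 to 24.9%. Inside or within 10 kb, 7 of the 20 neuronal genes (35%) had a summit. No end summit was found in the oligodendrocyte list (0 of 15, up to 21.8%), where Mbp held 2 inside (best 98.2), Cnp 1 inside and Sox10 1 at 5.20 kb, and where Nkx2-2, Cldn11, Pdgfra, Mag, Cspg4, Mobp, Olig2, Olig1, Mog, Gpr17 and Myrf had none within 10 kb. The choroid plexus list (0 of 10, up to 30.8%: Ttr, Kl, Aqp1, Kcnj13, Slc4a5, Folr1, Sostdc1, Otx2, Clic6 and Htr2c) had none within 10 kb either. In the microglial and vascular list (0 of 14, up to 23.2%) Ptprc had 1 inside (69.9) and Aif1 1 at 5.90 kb, and P2ry12, Tek, Kdr, Tmem119, Flt1, Itgam, Cdh5, Cx3cr1, Pecam1, Cldn5 and Csf1r had none within 10 kb. Binding sites are not expression, so these counts do not say which cells were present.

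Housekeeping lists had end summits in 11.5% to 21.4% of their genes, and olfactory receptor and keratin genes almost none. The housekeeping lists were taken by symbol and hold a few genes of other roles, such as Rps6kc1 and Psmc3ip. Cytosolic ribosomal protein genes had an end summit in 13 of 100 (13.0%, 7.11 to 21.2), led by Rpl35a (128) and Rpl30, and mitochondrial ones in 9 of 78, led by Mrpl10 (123). Proteasome subunits counted 6 of 40, led by Psma5 (115) and Psmd8 (101), Mediator subunits 4 of 30, led by Med31 (82.5), RNA polymerase subunits 6 of 28, among them Polr1c (49.5), and general transcription factors 9 of 52, led by Gtf2f1 (136) and Gtf3c6 (121). The interval of each of these 6 lists held the 9.05% of all genes. Among tissue-restricted families, olfactory receptors had 1 of 1110 (0.0901%, up to 0.501%), Olfr1344, and keratins 0 of 111 (up to 3.27%).

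**Figure D5:**
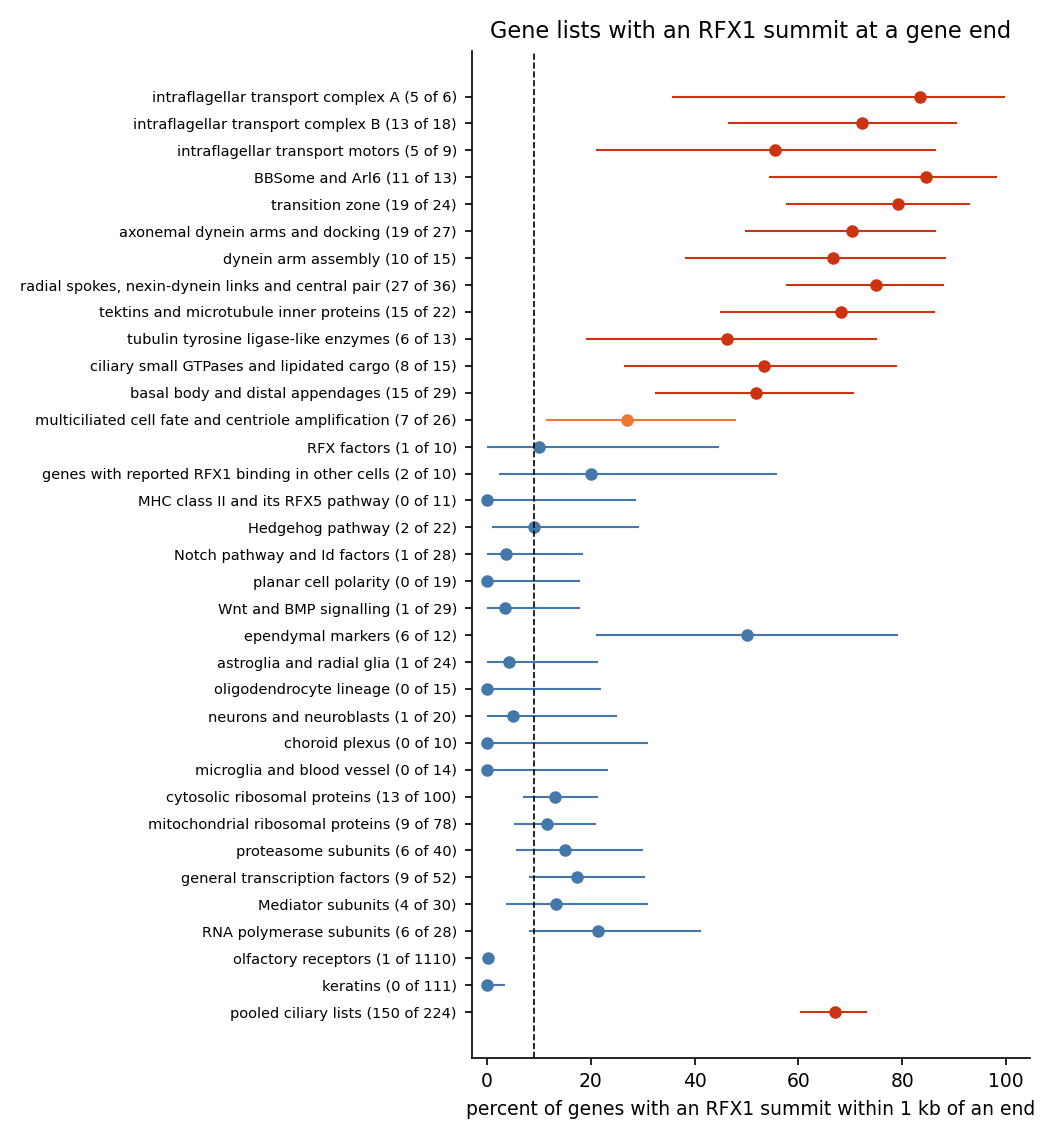
Percent of genes in each list, name families such as Cfap and Ccdc left out, with an RFX1 summit within 1 kb of an outer end (points), with 95% exact intervals (lines); red marks ciliary lists, orange the multiciliated programme and blue all others, and the dashed line is the 9.05% of all protein-coding genes. The 12 ciliary lists lie between 46.2% and 84.6%, and the ependymal list, at 6 of 12, is the highest of the blue lists drawn.

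Families that share a symbol varied as widely. Of 34 Cfap genes, named for cilia and flagella, 22 (64.7%, 46.5 to 80.3) had an end summit. Families with mixed roles came next, with 13 of 39 Cep genes, 14 of 42 Ttc, 44 of 137 Ccdc, 20 of 65 Wdr, 9 of 30 Spata, 13 of 45 Dnaj and 11 of 43 Kif. Lrrc genes counted 15 of 68 and Fam genes 28 of 175. The large Slc family of transporters had 17 of 389 (4.37%, 2.57 to 6.91), below the share of all genes, and Zfp genes had 29 of 400 (7.25%, 4.91 to 10.25). Strong summits in these families were at Ccdc181 (182), Tmem167b (187), Lrrc49 (163), Dnajc10 (161), Kif9 (157), Wdr66 (153) and Zfp287 (137).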

How the data were processed

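ChIP-seq of RFX1 was analysed from 1 deposited list of reproducible peaks, in which the replicates (2 ChIP and 2 input samples) were merged. The submitters' processing notes list MACS2 2.0.10.20130520, Bowtie 0.12.7, CASAVA 1.8.2 and GRCm38 as build, with no roles stated. The criterion for a reproducible peak, the control sample and the depth were not given in the sources used here. In this list the deposited score equals 10 times the −log10 q, cut to a whole number, for all 7440 peaks. Fold enrichment was used as the authors deposited it and taken to be ChIP signal relative to background. The authors' q-value was used in its deposited −log10 form. Summits were placed from the offset that the authors deposited with each peak. A further value column (1 per list), the −log10 p, was not used.

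Genes, transcription starts and sequences came from RefSeq tables of GRCm38.p6. Start windows on chromosome 18 were not used here, so counts of starts, inner starts and motifs in start windows hold none from it. A gene end was called bound with a summit within 1 kb, a start likewise, and summits were joined within 10 kb. Of the names in 51 gene lists, 33 matched no protein-coding gene. All of these were in the ciliary lists or the multiciliated list. Tektins and microtubule inner proteins had 11 of them, and dynein arms and docking 7. The counts of these lists cover matched names only. Shares carry 95% exact Clopper-Pearson intervals, and no test was run, since there was 1 merged list. Python 3.11.15, pandas 2.3.3, numpy 2.4.6 and SciPy 1.17.1 were used, and the scripts were tested on simulated peaks and sequences. Alternatives changed the window, the peak set, the summit, the genes, the joining distance and the motif. The members, lists and rules were chosen with earlier results of these data known. Named were the 10 strongest summits at gene ends, 5 inside and 5 between genes, the 5 groups with the most summits, the 5 genes with the most summits, the 5 genes with both ends bound and the highest lower −log10 q, and in each list up to 4 genes with the strongest end summit and, in lists of up to 15 genes, every member without one. Further list members, pairs of genes and inner starts were named after their values were seen. A few genes that these rules name are not reported here.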

Additional observations from a re-analysis of the deposited data

How the results depend on the processing

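No replicate could be left out, because the deposited list merges them. No paired analysis was possible because the list holds no column per replicate and no test was run. Of 48 values under other settings, 19 stayed within the interval of the value reported or, for counts and the median distance, within 1.5 times of it. These included every value with peak midpoints in place of summits. With a window of 500 bp around gene ends, 18.9% of summits were at gene ends, 45.4% inside and 35.7% between genes. At 5 kb these shares were 35.1%, 34.9% and 29.99%, with 3197 genes bound and 77.2% of the ciliary genes. With all annotated genes in place of protein-coding genes they were 27.8%, 46.9% and 25.4%. The stronger 50% of peaks (3720) gave 30.7% at gene ends, 39.7% inside and 29.7% between genes. In that set 8.87% of summits had another within 10 kb, 6 groups of 3 or more were left, the median distance was 262 kb, 49.5% of promoter windows with a summit held GTTGCC and 57.1% of ciliary genes had an end summit. The 6616 peaks with a fold of 5 or more gave 12.8% with another within 10 kb and 32 groups. Leaving out genes bound only through a summit shared with a neighbour gave 1307 genes and 48.7% of the ciliary genes. Joining summits within 5 kb gave 8.48% with a neighbour and 13 groups, and within 25 kb 28.1% and 165 groups, so the number of groups depends on that distance and on the peak set. With its 4th base free the X-box arm stood in 76.5% of promoter windows with a summit, and the full X-box without free bases in 2.45%. Depth is unknown, so a gene without a summit was not called, which does not show that RFX1 was absent.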

Other observations

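Genes for non-coding RNA also had RFX1 summits at their ends. Of 12727 genes for long non-coding RNA, 515 (4.05%) had a summit within 1 kb of an end, where 9.05% of protein-coding genes did, and 335 of the 519 summits involved were at no protein-coding gene end. The strongest was at Gm41507 on chromosome 16 (−log10 q of 184, 778 bp from the end), followed by Gm36472 (173, 14 bp) and 1700086L19Rik (147, 82 bp). Of 1228 miRNA genes, 31 (2.52%) had a summit within 1 kb, through 26 summits, of which 12 were at no protein-coding gene end.

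Many peaks of the lowest fold were at gene ends. Of the 99 peaks with a fold under 4, 40 (40.4%) were at a gene end, where 22.5% of all peaks were. Their median −log10 q was 13.2 and the highest 22.8. These genes and peaks were picked once their values were known, and no test was run on them.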
